A study of Rattus norvegicus with 6 samples.

Results

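The 29 genes described here are mainly genes of cholesterol and fatty acid synthesis that respond to the sterol regulatory element-binding proteins (SREBPs). They include genes that control these factors and 2 genes of sterol transport, of which Abca1 is a sterol exporter and not a synthesis gene. They were picked by gene name from a table of 43035 features, 32883 of them annotated genes and 10152 of them unannotated transcripts that the authors had added. The list holds 6 enzymes that carry acetyl-CoA to farnesyl diphosphate, 11 enzymes of squalene and sterol synthesis, 5 regulators of SREBP, 5 enzymes of fatty acid synthesis and 2 genes of sterol transport. All 29 names were found, and 21 of them had enough reads for a test.

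SREBPs are transcription factors made as membrane proteins of the endoplasmic reticulum. When sterols are scarce, the escort protein SCAP carries them to the Golgi apparatus, where proteases release the part that enters the nucleus and raises transcription of sterol and fatty acid enzymes. When sterols are plentiful, INSIG proteins hold SCAP back. Excess cholesterol leaves the cell through ABC transporters whose genes are under the liver X receptors (LXRs), which are nuclear receptors for oxysterols, and in heart muscle cells the pathway supplies membrane sterols and isoprenoids.

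RNA-seq was performed on primary heart cells of Sprague-Dawley rats taken at postnatal day 1, plated as cardiomyocytes after an attachment step that removes other cells, and kept in serum-containing medium. One group was given scrambled siRNA (si-NC) and the other siRNA directed at the kinase DYRK1A (si-DYRK1A), and both were collected after 48 h. Each group held 3 libraries, which the labels call biological replicates without saying whether each came from its own isolation of cells, so the p-values measure only the spread between these libraries. The comparison addressed which transcripts differ once DYRK1A is targeted in neonatal cardiomyocytes.

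The libraries held 10325074 to 11921772 counts each, and 15513 features passed the filter on low counts. Between the groups, 2360 features (15.2%) passed the threshold, an adjusted p below 0.05 in edgeR's quasi-likelihood test, of which 1245 (8.03%) had the larger level in si-DYRK1A and 1115 (7.19%) in si-NC. A decrease of the target's own RNA was not seen, and DYRK1A protein, which the study followed separately by immunoblotting, is not analysed here. The annotated Dyrk1a gene had 0 to 3 counts per library, and the unannotated transcript over its locus had 77.7 ± 3.22 CPM (counts scaled by TMM-normalized library size, mean ± SD, n = 3) in si-NC and 82.4 ± 2.70 CPM in si-DYRK1A (log2 fold change 0.08, edgeR adjusted p = 0.3738). The groups are therefore named by their labels, and every direction below is that of the libraries labelled si-DYRK1A against those labelled si-NC. Mitochondrial genes held 2.00% to 2.50% of the counts in si-NC and 2.63% to 2.72% in si-DYRK1A, and their part in the results was not tested.

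The cultures held heart muscle RNA beside RNA of other cells. Of 10 cardiomyocyte markers, 4 were tested, and Actc1 (cardiac actin) and Nppa (natriuretic peptide A) were higher (log2 fold changes 0.13 and 0.37, edgeR adjusted p = 0.0193 and 3.711e-06). Tnnt2 and Myl3 had negative values, -0.14 and -0.11, without passing (edgeR adjusted p = 0.5953 and 0.08783). Tnni3, Myh6, Myh7 and Myl2 were listed at 0, but unannotated transcripts on their strand held 1287, 8704 and 388 counts in all, Myh6 and Myh7 sharing one. The 10 markers summed to 19524 to 20358 CPM in si-NC and 22245 to 23247 CPM in si-DYRK1A. Most of that sum was Actc1 (mean 9976 CPM in si-NC and 10880 CPM in si-DYRK1A) and Nppa (7557 and 9782 CPM). The summed level of 8 fibroblast markers, 7 of them matched, was 21531 to 26245 CPM in si-NC and 20368 to 21107 CPM in si-DYRK1A, with Lum and Postn higher of 6 tested. Most of that sum was Col1a1 (mean 14341 CPM in si-NC and 11113 CPM in si-DYRK1A) and Col3a1 (9002 and 9127 CPM). Col1a1 was at -0.37 on the log2 scale without passing (edgeR adjusted p = 0.08686). Endothelial markers summed to 169.7 to 188.5 CPM in si-NC and 137.8 to 143.7 CPM in si-DYRK1A, with Cdh5, Tek and Tie1 lower of 6 tested. Kdr, Emcn and Vwf did not pass, at -0.01, 0.03 and -0.53 on the log2 scale (edgeR adjusted p = 0.9537, 0.922 and 0.0719). Macrophage markers summed to 287 to 304 CPM and 292 to 339 CPM, with Cd163 and Lyz2 higher of 9 tested. No adipocyte marker was tested, and those 6 genes summed to at most 1.82 CPM in any library. Of 6 smooth muscle and pericyte markers, 2 were tested and neither passed the threshold (summed level 556 to 563 CPM in si-NC and 545 to 569 CPM in si-DYRK1A). That sum was nearly all Cnn1 (mean 556 CPM in si-NC and 554 CPM in si-DYRK1A, log2 fold change -0.01). Tagln, at 2.74 and 1.72 CPM, had a log2 fold change of -0.66 (edgeR adjusted p = 0.1813). The unannotated transcript over Rgs5 was higher (log2 fold change 0.55, edgeR adjusted p = 1.343e-05). In bulk RNA, fewer cells of a type and less RNA per cell cannot be told apart.

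Of the 21 genes tested, 7 (33.3%) passed the threshold, against 15.2% of all features tested. The sterol exporter Abca1 and the sterol enzymes Msmo1 and Fdft1 were higher, 3 genes against a background of 8.03%. The regulators Srebf1, Scap and Insig1 and the citrate-cleaving enzyme Acly were lower, 4 genes against a background of 7.19%. The other 14 did not pass. The median log2 fold change of the 21 genes was 0.01 and that of all features tested was 0.00, with 13 positive and 8 negative values among the 21. The median absolute log2 fold change was 0.126 among the 21 and 0.176 over all features tested. The median standard error was 0.060 among the 21 and 0.147 over all features. The larger share past the threshold thus does not mean larger changes. In 10 of the 21 genes the 3 libraries of each group did not overlap in CPM, 6 of them higher and 4 lower, against 31.5% of all features tested.

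**Figure D1:**
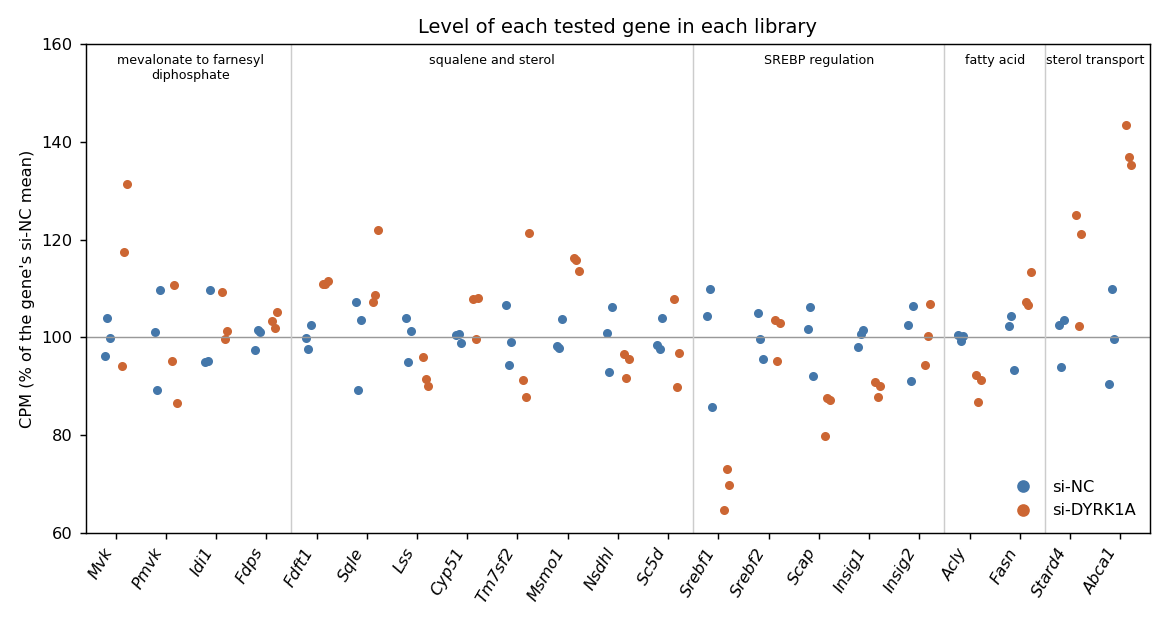
CPM of the 21 tested genes in each of the 6 libraries, as a percentage of the mean of the 3 si-NC libraries of that gene (vertical axis); each point is one library, and the panels are the gene groups. The 3 si-DYRK1A points of Srebf1, Scap, Insig1 and Acly lie below all si-NC points, and those of Abca1, Msmo1 and Fdft1 lie above them.

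Of the 4 lower genes, 3 were regulators. All 5 regulators were tested, and 3 of them passed the threshold, each lower, against 7.19% lower of all features tested. That share rests on few genes. Srebf2 and Insig2 lay at 0.01 on the log2 scale. Srebf1 encodes SREBP-1, the form tied mainly to fatty acid and triacylglycerol synthesis, and lies at chr10:46570996-46593009 on the minus strand of Rnor_6.0. It had 109.9, 116 and 90.2 CPM in the si-NC libraries and 68.0, 76.9 and 73.4 CPM in the libraries labelled si-DYRK1A. The groups did not overlap, although the third si-NC library lay closer to the si-DYRK1A libraries than the other two did. Its mean fell from 105 ± 13.3 to 72.8 ± 4.51 CPM (SD, n = 3), a log2 fold change of -0.53 (SE 0.0873, 95% interval -0.73 to -0.34, edgeR adjusted p = 0.001804), the largest decrease among the 21 genes. A stretch of 588 bases of Srebf1 is shared with Rai1 on the opposite strand, and whether the counting used strand is not given in the sources used here. Over the 6 libraries Rai1 had 2 counts, and an unannotated transcript of that strand over the same bases had 220.

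Srebf1 has a pair of start sites in the RefSeq table of assembly GRCr8, an upstream one with the window chr10:45529115-45529414 and a downstream one with the window chr10:45518961-45519260, both on the minus strand. The deposited counts are summed over the gene and do not separate transcripts from the 2 starts. Each window holds 250 bases before the start and 50 after it. They are printed 5′ to 3′ because Srebf1 had the largest decrease, and capitals mark CCAAT boxes (CCAAT on either strand) and E-boxes (CACGTG).
Srebf1 upstream start: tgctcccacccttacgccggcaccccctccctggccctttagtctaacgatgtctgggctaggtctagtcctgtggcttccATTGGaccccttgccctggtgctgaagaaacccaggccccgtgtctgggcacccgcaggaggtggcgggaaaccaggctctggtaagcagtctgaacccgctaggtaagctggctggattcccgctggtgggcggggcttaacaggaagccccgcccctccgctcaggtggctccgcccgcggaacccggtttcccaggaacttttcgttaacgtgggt
Srebf1 downstream start: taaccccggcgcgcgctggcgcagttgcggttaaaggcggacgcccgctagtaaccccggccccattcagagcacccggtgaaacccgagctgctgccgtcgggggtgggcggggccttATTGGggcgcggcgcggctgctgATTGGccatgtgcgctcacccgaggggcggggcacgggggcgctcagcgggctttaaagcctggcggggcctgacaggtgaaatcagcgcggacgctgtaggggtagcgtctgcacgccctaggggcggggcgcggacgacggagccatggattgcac

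Scap, the escort of SREBP, lies at chr8:118570503-118628651 on the plus strand of Rnor_6.0. It had 148, 154 and 134 CPM in si-NC and 116, 127 and 127 CPM in the libraries labelled si-DYRK1A. Every si-DYRK1A library lay below every si-NC library, and the log2 fold change was -0.24 (SE 0.0568, edgeR adjusted p = 0.006089). Insig1, which retains SCAP when sterols are plentiful and is itself an SREBP target, lies at chr4:342302-350515 on the plus strand of Rnor_6.0. Its level was 219, 225 and 227 CPM in si-NC and 203, 197 and 201 CPM in si-DYRK1A. These groups were also apart, by a smaller margin, with a log2 fold change of -0.16 (SE 0.0440, edgeR adjusted p = 0.01633). The Insig1 call did not hold without si-DYRK1A replicate 2 (edgeR adjusted p = 0.09405) and without replicate 3 (0.05434), while those on Srebf1 and Scap were kept with each library left out in turn. Scap then came as close to the threshold as an edgeR adjusted p of 0.04986. Over 20 alternative analyses, the Scap call was lost in 3 and the Srebf1 call in 1.

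Srebf2 and Insig2 did not pass the threshold. Srebf2 encodes SREBP-2, the form tied mainly to cholesterol synthesis, and had 239, 227 and 217 CPM in si-NC and 236, 217 and 234 CPM in si-DYRK1A. The groups overlapped, and the interval of its log2 fold change was -0.09 to 0.11 (edgeR adjusted p = 0.9415), whose lower end lay above the whole interval for Srebf1. Insig2, the second INSIG gene, had 26.6, 23.6 and 27.6 CPM in si-NC and 24.5, 26.0 and 27.7 CPM in si-DYRK1A, again with overlap, and its interval of -0.18 to 0.20 still allowed the change measured for Insig1. Per unit of gene length, the FPKM ratio of Srebf2 to Srebf1 was 1.92, 1.73 and 2.13 in si-NC and 3.07, 2.49 and 2.82 in si-DYRK1A, without overlap (exact two-sided permutation p = 0.1, the smallest that 3 against 3 libraries can give). The FPKM ratio of Insig1 to Insig2 was 3.55 ± 0.307 in si-NC and 3.16 ± 0.218 in si-DYRK1A (SD, n = 3, exact two-sided permutation p = 0.3). Summed over the 5 regulators, the level went from 728 ± 27.5 CPM to 651 ± 10.6 CPM, a difference of -10.5%.

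The promoter windows of Scap, at chr8:119184188-119184487 on the plus strand of GRCr8, and of Insig1, at chr4:8057720-8058019 on the minus strand of GRCr8, are given with the same capitals, since both genes fell and both windows hold an E-box.
Scap: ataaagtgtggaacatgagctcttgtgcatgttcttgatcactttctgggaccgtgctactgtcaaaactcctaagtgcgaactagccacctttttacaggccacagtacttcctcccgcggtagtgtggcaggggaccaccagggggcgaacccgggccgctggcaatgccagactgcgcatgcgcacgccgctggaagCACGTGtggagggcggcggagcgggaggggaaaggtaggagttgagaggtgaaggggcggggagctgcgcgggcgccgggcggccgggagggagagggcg
Insig1: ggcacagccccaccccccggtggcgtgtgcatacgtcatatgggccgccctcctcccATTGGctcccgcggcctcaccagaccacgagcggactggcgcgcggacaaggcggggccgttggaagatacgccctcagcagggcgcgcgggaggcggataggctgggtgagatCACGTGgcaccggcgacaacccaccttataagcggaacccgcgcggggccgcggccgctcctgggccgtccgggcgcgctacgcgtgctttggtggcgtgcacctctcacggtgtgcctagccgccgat

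Of the 6 enzymes from acetyl-CoA to farnesyl diphosphate, 4 were tested and none passed the threshold, against 15.2% of all features tested. The libraries of 1 of the 4 did not overlap between groups, against 31.5% of all features tested. Fdps, which makes farnesyl diphosphate, had 363, 378 and 376 CPM in si-NC and 385, 379.7 and 391 CPM in si-DYRK1A. The libraries labelled si-DYRK1A were all higher, but by little, with a log2 fold change of 0.05 (95% interval -0.04 to 0.14, edgeR adjusted p = 0.4864). Mvk, mevalonate kinase, spread widely in si-DYRK1A, at 14.2, 17.8 and 19.9 CPM against 14.6, 15.7 and 15.1 CPM in si-NC, and its log2 fold change of 0.19 did not pass (edgeR adjusted p = 0.329). That value turned on single libraries, being 0.08 when si-DYRK1A replicate 3 was omitted and 0.32 when si-DYRK1A replicate 1 was. Pmvk, the next kinase, lay at 7.40 ± 0.761 CPM and 7.21 ± 0.907 CPM (log2 fold change -0.04, adjusted p = 0.9163), and with the fewest reads of the tested genes its interval was the widest, -0.39 to 0.31. Idi1, which isomerises isopentenyl diphosphate, lay at 148 ± 12.5 CPM and 153 ± 7.57 CPM (log2 fold change 0.05, edgeR adjusted p = 0.653).

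Sterol synthesis proper gave 2 higher genes and no lower one among 8 tested of 11. Of all features tested, 8.03% were higher and 7.19% lower, so with 8 genes the share is not read as a result. Msmo1, the methylsterol monooxygenase that takes up sterols already demethylated by Cyp51, lies at chr16:26859397-26875973 on the plus strand of Rnor_6.0. It had 163, 162 and 172 CPM in si-NC and 192, 192 and 188 CPM in si-DYRK1A. The groups were well apart, and the log2 fold change was 0.20 (SE 0.0459, edgeR adjusted p = 0.003619), a call kept with each library left out in turn. Fdft1, squalene synthase, lies at chr15:46339249-46367302 on the minus strand of Rnor_6.0 and takes farnesyl diphosphate into the sterol branch. It had 163, 159 and 167 CPM in si-NC and 181, 181 and 182 CPM in si-DYRK1A. Its si-DYRK1A libraries were nearly identical and all higher, with a log2 fold change of 0.15 (SE 0.0453, edgeR adjusted p = 0.02484). That call rested close to the threshold, as it was lost in 13 of 20 alternative analyses, DESeq2 among them (adjusted p = 0.05734), and in 5 of the 6 analyses that left out one library, with an adjusted p of up to 0.0848 (kept without si-NC replicate 3).

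The Msmo1 window at chr16:29746863-29747162 on the plus strand of GRCr8 is printed because Msmo1 was the sterol enzyme with the largest log2 fold change.
Msmo1: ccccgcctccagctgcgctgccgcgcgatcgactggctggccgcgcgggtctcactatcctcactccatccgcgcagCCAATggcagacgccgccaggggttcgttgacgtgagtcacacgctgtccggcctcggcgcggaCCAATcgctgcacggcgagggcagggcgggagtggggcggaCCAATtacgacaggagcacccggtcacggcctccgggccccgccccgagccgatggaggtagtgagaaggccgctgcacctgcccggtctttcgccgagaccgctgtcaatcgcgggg

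The remaining sterol enzymes did not pass the threshold. Sqle, squalene epoxidase, had 77.5, 64.5 and 74.9 CPM in si-NC and 77.5, 78.6 and 88.2 CPM in si-DYRK1A. The groups met at 77.5 CPM without crossing, and the log2 fold change was 0.17 (95% interval 0.02 to 0.32, edgeR adjusted p = 0.1158). It was 0.09 without si-NC replicate 2 and 0.11 without si-DYRK1A replicate 3. Cyp51, the lanosterol demethylase, had a log2 fold change of 0.07 (adjusted p = 0.3102). Lss, lanosterol synthase, was at -0.11 (adjusted p = 0.2399) and Nsdhl, which acts after Msmo1, at -0.08 (adjusted p = 0.4442), both with overlapping libraries. Sc5d, a sterol desaturase, was at -0.03 (adjusted p = 0.8281). Tm7sf2, a sterol reductase, ranged from 25.7 to 35.6 CPM within si-DYRK1A alone and its log2 fold change was 0.00 (adjusted p = 0.9871, edgeR for all 6 genes). It shares 1066 bases with Vps51 on the same strand, so its reads are uncertain. Summed over the 12 tested enzymes from acetyl-CoA to sterol, the level was 1558, 1540 and 1606 CPM in si-NC and 1669, 1599 and 1666 CPM in si-DYRK1A. These sums overlapped and differed by 4.92%.

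**Figure D2:**
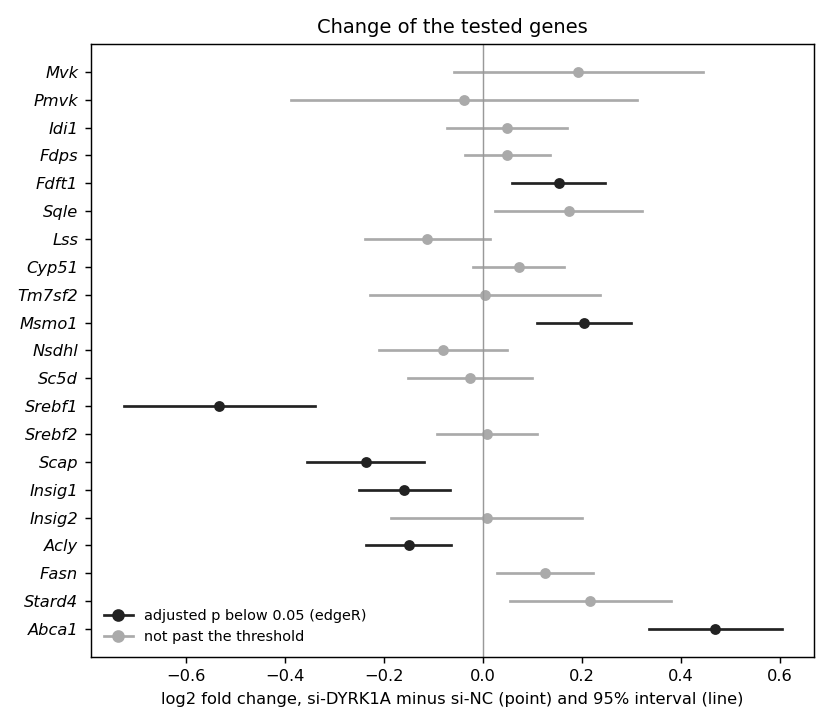
Log2 fold change of the 21 tested genes, si-DYRK1A minus si-NC (horizontal axis), as the edgeR estimate (point) and its 95% interval (line), with genes whose adjusted p is below 0.05 in black. Srebf1 at -0.53 and Abca1 at 0.47 lie farthest from 0, and the 14 tested enzymes lie between -0.15 and 0.20.

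Fatty acid synthesis split between its 2 tested genes. Acly, ATP citrate lyase, makes cytosolic acetyl-CoA for both branches and lies at chr10:88392248-88442845 on the minus strand of Rnor_6.0. It had 559, 552 and 557 CPM in si-NC and 514, 483 and 507 CPM in si-DYRK1A. The si-NC libraries agreed closely and all lay above si-DYRK1A, with a log2 fold change of -0.15 (SE 0.0413, edgeR adjusted p = 0.01615). This call did not hold without si-NC replicate 1 (edgeR adjusted p = 0.06325) nor without si-DYRK1A replicate 2 (0.1233) or replicate 3 (0.0501). Fasn, fatty acid synthase, had 528, 538 and 481 CPM in si-NC and 553, 549.6 and 585 CPM in si-DYRK1A. Its libraries did not overlap and were higher in si-DYRK1A, but the log2 fold change of 0.13 did not pass (edgeR adjusted p = 0.0764). It did pass when si-NC replicate 2 was left out (edgeR adjusted p = 0.02897), but the log2 fold change was only 0.07 without si-NC replicate 3 (adjusted p = 0.34) and 0.10 without si-DYRK1A replicate 3 (adjusted p = 0.313). The sum of both genes was 1071 ± 28.95 CPM in si-NC and 1064 ± 30.2 CPM in si-DYRK1A (SD, n = 3).

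Both genes of sterol transport had positive log2 fold changes, and Abca1 passed the threshold. Abca1 hands cholesterol and phospholipid to apolipoprotein A-I at the cell surface, is a target of LXR, and lies at chr5:69857771-69983015 on the minus strand of Rnor_6.0. It had 63.9, 77.5 and 70.3 CPM in si-NC and 101, 96.6 and 95.5 CPM in the libraries labelled si-DYRK1A. The lowest si-DYRK1A library lay above the highest si-NC library by more than the whole range within si-NC, and the mean went from 70.5 ± 6.80 to 97.7 ± 3.01 CPM (SD, n = 3). The log2 fold change of 0.47 (SE 0.0643, 95% interval 0.34 to 0.60, edgeR adjusted p = 2.43e-05) was the largest increase of the 21 genes. The macrophage markers Cd163 and Lyz2 were higher in the same libraries (log2 fold changes 0.87 and 0.41). C1qa, C1qb and C1qc were at 0.15, 0.07 and 0.28 without passing. Csf1r, Mrc1 and Ptprc were at -0.13, -0.19 and -0.21, also without passing. Adgre1, a macrophage marker at a low level, was at -0.54 without overlap and did not pass (edgeR adjusted p = 0.1678). The part of macrophages in the Abca1 level was not tested. Stard4, which moves cholesterol between membranes inside the cell, had 50.6, 46.3 and 51.1 CPM in si-NC and 61.7, 50.5 and 59.8 CPM in si-DYRK1A. The second si-DYRK1A library fell within the si-NC range, and the log2 fold change was 0.22 (SE 0.0780, edgeR adjusted p = 0.06579). Without that library the edgeR adjusted p was 0.01898, and with no filter on low counts it was 0.04047. It rose to 0.254 without si-DYRK1A replicate 1, to 0.2278 without si-DYRK1A replicate 3 and to 0.2029 without si-NC replicate 2.

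The Abca1 window at chr5:72596424-72596723 on the minus strand of GRCr8 is printed as that of the gene with the largest increase.
Abca1: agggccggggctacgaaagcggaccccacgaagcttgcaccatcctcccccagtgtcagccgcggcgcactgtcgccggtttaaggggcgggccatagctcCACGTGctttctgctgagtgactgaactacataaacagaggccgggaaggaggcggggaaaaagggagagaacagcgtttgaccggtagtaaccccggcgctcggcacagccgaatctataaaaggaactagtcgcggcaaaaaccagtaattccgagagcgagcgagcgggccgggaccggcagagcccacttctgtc

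In the RefSeq table, 22 of the 29 genes matched by symbol, with 23 windows. Pmvk, Fdft1, Sqle, Stard4, Acaca, Fasn and Elovl6 did not match. A CCAAT box, the letters CCAAT on either strand, stood in 18 of the 23 windows (78.3%), against 37.5% of all 33469 windows in the table. An E-box, CACGTG, stood in 4 windows (17.4%), those of Sc5d, Scap, Insig1 and Abca1, against 6.42% of all windows. The letters TCACNCCAC, a core of the sterol regulatory element, were in 0 of the 23 windows and in 1.12% of all windows, searched on both strands. A CG-rich palindrome, CTCGCGAG, was in 0 of the 23 windows and in 0.723% of all. The E-box thus stood in windows of higher (Abca1) and lower (Scap, Insig1) genes and of Sc5d, which did not pass. The CCAAT box stood in windows of higher (Msmo1) and lower (Srebf1, Insig1, Acly) genes. It also stood in those of tested genes that did not pass, Mvk, Idi1, Fdps, Lss, Tm7sf2, Nsdhl, Sc5d, Srebf2 and Insig2. A match describes the letters in the window and does not show that a factor binds there. Only the exact letters were searched, so near matches and sites outside the windows were not counted. The 0 of 23 windows with TCACNCCAC therefore does not show that these genes lack a sterol regulatory element.

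Levels between genes can be compared only per gene length, for which the FPKM values deposited by the authors were used. In si-NC, Acly was highest at 128 ± 0.517 FPKM (mean ± SD, n = 3), followed by Fdps at 123 ± 3.14 and Cyp51 at 95.8 ± 1.11. Pmvk at 6.73 ± 0.682 FPKM and Abca1 at 6.78 ± 0.676 FPKM were lowest, so the gene with the largest increase was among those with the lowest level. The regulators ran from Insig1 at 91.8 ± 1.89 FPKM through Srebf2 at 45.1 ± 2.02 and Scap at 33.7 ± 2.46 to Insig2 at 26.0 ± 2.03 and Srebf1 at 23.6 ± 3.01. In the order of si-NC means, the ranges of mean ± SD overlapped between neighbours for Insig1 and Msmo1, for the run of Fasn, Idi1 and Fdft1, for the run of Sqle, Insig2, Nsdhl, Sc5d and Srebf1, for Tm7sf2 and Mvk, and for Abca1 and Pmvk. In si-DYRK1A, Fdps was at 127 ± 1.79 FPKM and Acly at 115 ± 3.67 FPKM, which exchanged their places at the top, and Msmo1 at 102 ± 1.37 FPKM stood above Insig1 at 82.0 ± 1.33 FPKM. Acly fell and Msmo1 rose in edgeR, whereas Fdps did not pass.

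**Figure D3:**
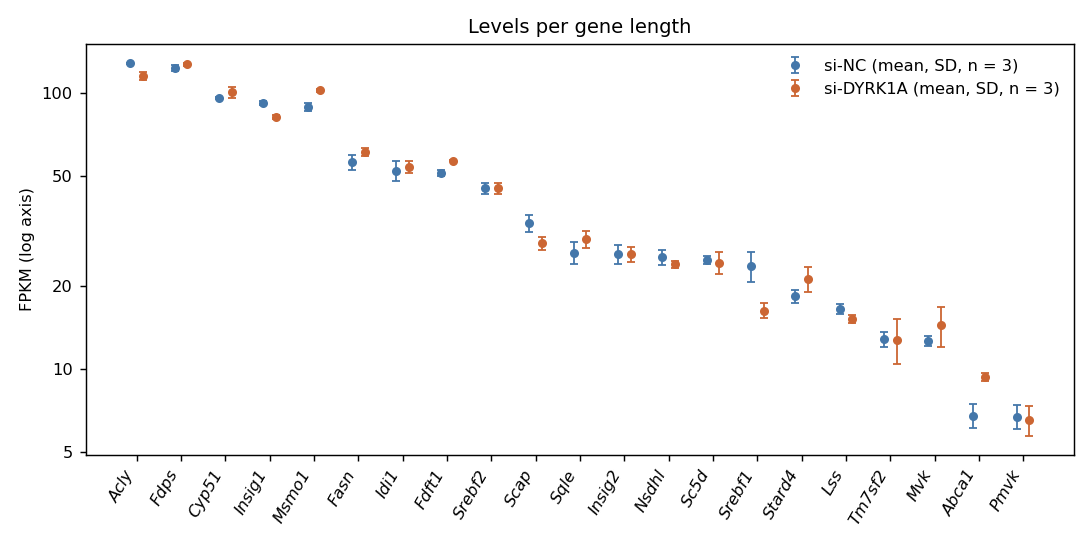
FPKM of the 21 tested genes (vertical axis, log scale) as mean and SD of 3 libraries per group, ordered by the si-NC mean. Levels run from Acly at 128 FPKM to Pmvk at 6.73 FPKM in si-NC, and Srebf1 and Abca1 show the widest gaps between groups.

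The 8 genes without a test were Hmgcs1 (HMG-CoA synthase), Mvd (mevalonate diphosphate decarboxylase), the sterol enzymes Hsd17b7, Ebp and Dhcr7, and, for fatty acids, Acaca (acetyl-CoA carboxylase), Scd (stearoyl-CoA desaturase) and Elovl6 (an elongase). They had at most 10 counts over the 6 libraries, and 5 of them had 0. All 8 were covered over at least 99% of their length by a transcript without annotation on their own strand. A count of 0 under the gene's name is therefore not read here as absence of expression. Of the 8 transcripts, 3 had enough reads for a test, 3 had no count, and those over Hmgcs1 and Scd had 26 and 29 counts in all.

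The transcript over Acaca had 53.0, 52.9 and 50.001 CPM in si-NC and 51.0, 50.9 and 50.1 CPM in si-DYRK1A. The groups overlapped, and the log2 fold change of -0.04 (95% interval -0.17 to 0.10, edgeR adjusted p = 0.7881) did not pass. The transcript over Elovl6 was low, at 5.75, 4.57 and 4.26 CPM in si-NC and 3.17, 3.20 and 4.93 CPM in si-DYRK1A, and its log2 fold change of -0.36 (SE 0.226, edgeR adjusted p = 0.3293) did not pass. The transcript over Hsd17b7 had 6.14, 5.41 and 8.28 CPM in si-NC and 5.98, 6.403 and 5.54 CPM in si-DYRK1A, with overlap (log2 fold change -0.15, edgeR adjusted p = 0.6706). Scd2, a close relative of Scd that is outside the list, held 245 ± 2.37 FPKM in si-NC and had a log2 fold change of -0.03 (edgeR adjusted p = 0.741), and reads shared by the 2 genes could be split between them.

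Unannotated transcripts also overlapped 5 of the tested genes. That over Fdps held 828 counts over the 6 libraries (log2 fold change -0.17, edgeR adjusted p = 0.4462), that over Mvk held 18, and those over Pmvk, Sqle and Abca1 held none. When the counts of a gene were added to those of a transcript spanning 50% or more of it and touching no further annotated gene, 24 of the 29 genes were tested, and 3 were again higher and 4 lower. In that analysis the log2 fold changes were -0.54 for Srebf1 and 0.46 for Abca1.

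**Figure D4:**
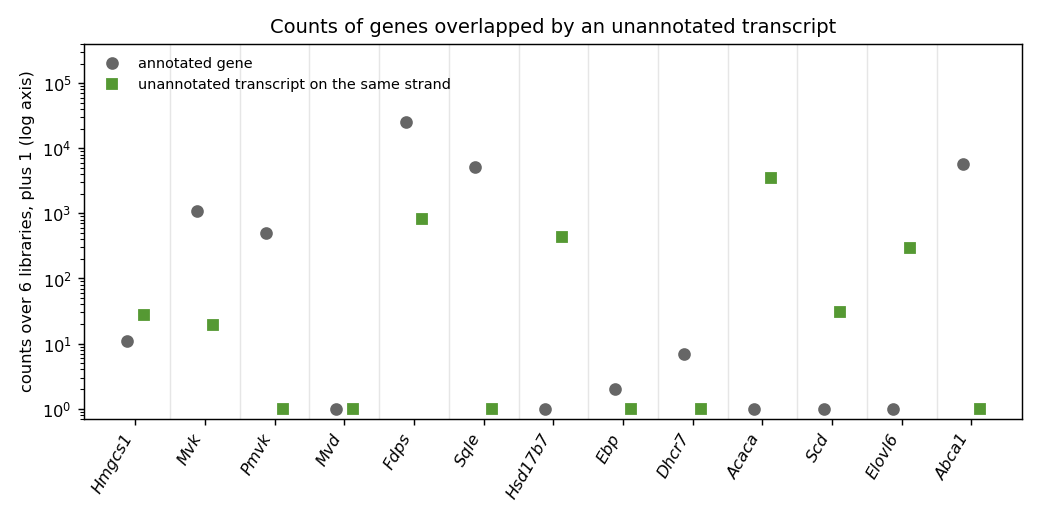
Counts summed over the 6 libraries, plus 1 so that 0 can be drawn (vertical axis, log scale), for the 13 genes overlapped by an unannotated transcript of their strand, with circles for the annotated gene and squares for the transcript. At Acaca, Hsd17b7, Elovl6 and Scd the counts stand under the transcript and not under the gene, and at Fdps, Sqle and Abca1 mostly or wholly under the gene.

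The wider pathway was read from a list of 81 further genes of sterol, isoprenoid, fatty acid and glycerolipid metabolism, of which 79 matched and 54 were tested. Of these, 14 (25.9%) passed the threshold, against 15.2% of all features tested. Only 1 was higher, against a background of 8.03%, and 13 were lower, against a background of 7.19%, and the median log2 fold change of the 54 was -0.06. Their median absolute log2 fold change was 0.165, against 0.176 over all features tested. Their median standard error was 0.058, against 0.147 over all features, so this share does not mean larger changes either. By gene group, each to be read against the same 15.2%, the shares rested on few genes. None of 5 isoprenoid genes, 2 of 4 other sterol genes, 2 of 11 other regulators (18.2%), 1 of 6 genes of the LXR axis (16.7%), 3 of 10 genes of sterol traffic, 4 of 12 other fatty acid genes and 2 of 6 glycerolipid genes passed the threshold.

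In lipid storage, Plin2, a coat protein of lipid droplets, had 298, 283 and 296 CPM in si-NC and 219, 212 and 215 CPM in si-DYRK1A. It fell by 0.44 on the log2 scale without any overlap (SE 0.0437, edgeR adjusted p = 3.605e-07), the smallest p of the list. Dgat2, which makes triacylglycerol, had 27.9, 30.7 and 32.8 CPM in si-NC and 19.7, 21.8 and 21.2 CPM in si-DYRK1A, with a log2 fold change of -0.55 (edgeR adjusted p = 0.0002592). Both genes were lower in every library labelled si-DYRK1A.

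In sterol traffic, Npc1, which exports cholesterol from lysosomes, had 121, 122 and 128 CPM in si-NC and 92.5, 96.4 and 96.9 CPM in si-DYRK1A. Its groups were apart, with a log2 fold change of -0.38 (edgeR adjusted p = 1.898e-05). Lrp1, an endocytic receptor of lipoproteins, was lower as well (-0.31, adjusted p = 0.0001115), and so was Soat1, which esterifies cholesterol (-0.20, adjusted p = 0.01259). Tmem97, a membrane protein that binds NPC1, is counted above among the other sterol genes and was the only higher gene of the list. It had 73.6, 73.7 and 69.0 CPM in si-NC and 90.9, 88.2 and 88.4 CPM in si-DYRK1A (log2 fold change 0.31, edgeR adjusted p = 0.0005759). Of the genes listed under the LXR axis, only Abcg2, an efflux transporter, passed, and it was lower (-0.51, edgeR adjusted p = 0.01725). Nr1h3, Smpdl3a and Lpcat3, given after their values were seen, were at -0.24, -0.08 and -0.0036 (edgeR adjusted p = 0.2246, 0.5263 and 0.976). Named after their values were seen, Abcg1, which like Abca1 exports cholesterol and is an LXR target, lay at 4.52 ± 0.881 and 5.37 ± 1.00 CPM (log2 fold change 0.24, edgeR adjusted p = 0.5006), and Mylip, an LXR target that marks lipoprotein receptors for breakdown, was at -0.07 (adjusted p = 0.6913).

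Around fatty acid synthesis, Mid1ip1, a partner of acetyl-CoA carboxylase, had 148, 151 and 151 CPM in si-NC and 124, 118 and 128 CPM in si-DYRK1A. It was lower in all 3 libraries labelled si-DYRK1A (log2 fold change -0.28, edgeR adjusted p = 0.0003381). Slc25a1, the carrier that takes citrate out of mitochondria for Acly, was lower with overlap (-0.22, adjusted p = 0.01777). The elongase Elovl1 (-0.22, adjusted p = 0.00327) and the desaturase relative Fads3 (-0.21, adjusted p = 0.006038) were lower too by edgeR. So was Cyb5r3, a reductase that feeds desaturases and sterol oxidases (-0.19, edgeR adjusted p = 0.004669), counted above among the other sterol genes. The other 2 genes past the threshold, Pgrmc1 and Faf2, ranked below these 12 by p and were named after their values were seen, with log2 fold changes of -0.14 and -0.16. Leaving out each library in turn, the calls on 8 of the 12 were kept, and those on Fads3, Soat1, Abcg2 and Slc25a1 were lost at least once. Of 6 tested endothelial markers, 3 also fell in the libraries labelled si-DYRK1A, while Kdr and Emcn lay at -0.01 and 0.03. The part of endothelial cells in these decreases was not tested.

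**Figure D5:**
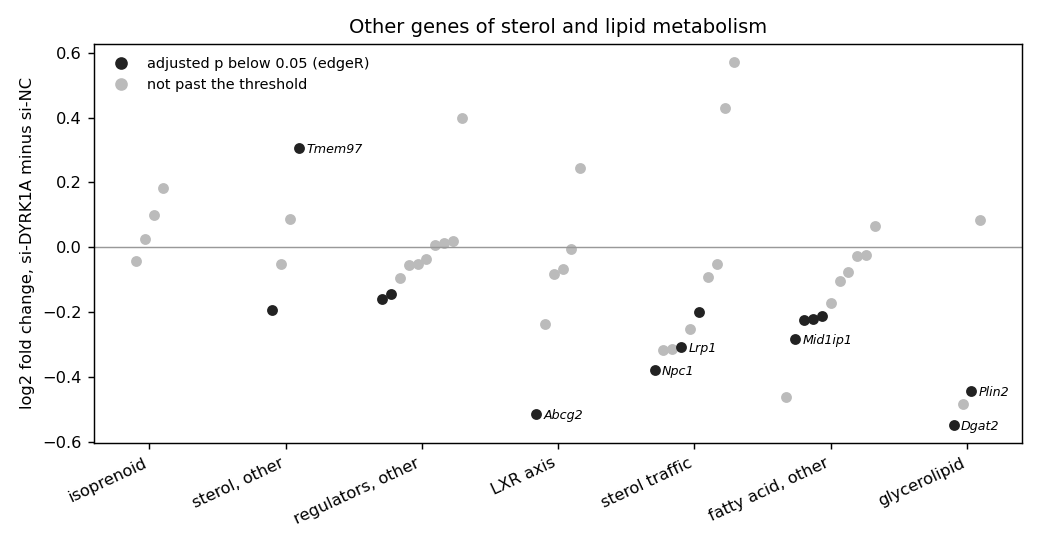
Log2 fold change, si-DYRK1A minus si-NC (vertical axis), of 49 of the 54 tested genes of the further list by gene group; the 5 genes with a standard error of 0.3 or more are not drawn, and black points have an edgeR adjusted p below 0.05. Tmem97 at 0.31 is the only black point above 0, and Dgat2 at -0.55 and Abcg2 at -0.51 are the lowest.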

How the data were processed

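RNA was taken 48 h after transfection from 3 si-NC and 3 si-DYRK1A cultures, grouped by the sample labels. The authors aligned the reads with HISAT2 to the rat build Rnor_6.0 and deposited a raw count for each gene and each unannotated transcript. They also deposited FPKM, which equal the count over the gene length times a factor specific to the library. The sources used here do not give the counting tool, the annotation release or how strand was used. The submitters' processing notes name a mouse build, which does not match rat gene identifiers.

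Counts were tested with edgeR 4.0.16 in R 4.3.3 (quasi-likelihood, robust, TMM, filterByExpr with a minimum count of 10 and a total of 15), two-sided, with Benjamini-Hochberg adjustment over 15513 features and a threshold of 0.05. CPM were TMM-normalized. With 10325074 to 11921772 counts per library, the biological coefficient of variation was 8.82%. Single values were compared by exact permutation. The scripts were tested on simulated data. Promoter windows came from RefSeq.

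The genes and lists were chosen with earlier results of these data known. All tested members are named, and of the further list the 12 genes past the threshold with the smallest p. The 20 alternatives were RLE, upper-quartile or library-size scaling, DESeq2 1.42.0, limma-voom 3.58.1, no filter, a minimum of 10 counts in all libraries, a block on the replicate number, omission of each library, limma on log2(FPKM + 1) or log2(FPKM + 0.1) above 0.5 FPKM in 3 libraries, the former unfiltered, an adjusted p below 0.01, annotated genes only, and sums with unannotated transcripts. Testing the transcripts over members as features of their own in each alternative was added after seeing the data. Some genes of the pathway are not analysed here.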

Additional observations from a re-analysis of the deposited data

How the results depend on the processing

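Abca1, Msmo1, Srebf1 and Scap kept their calls with each library left out, Scap narrowly (edgeR adjusted p of up to 0.04986). None of the 7 called genes changed sign in any of the 20 alternatives. The 3 higher and 4 lower genes became 2 higher and 2 lower at an adjusted p below 0.01. Over all 15513 features, the calls there went from 1245 higher and 1115 lower to 723 and 584. With limma on log2(FPKM + 1) without a filter on low values, 0 were higher and 0 lower of 24 tested, the smallest adjusted p of a member being 0.0575, with 7 members at an unadjusted p below 0.05. Over all features, that fit called only 344 higher and 247 lower of 27806 tested. Leaving out one library gave 2 to 3 higher and 2 to 4 lower, the 2 lower without si-DYRK1A replicate 2 or 3. Over all features, leaving out one library gave 854 to 1123 higher and 746 to 1087 lower. The median log2 fold change of 0.01 was -0.018 with library size only, 0.039 with no filter on low counts, and 0.0029 to 0.060 with a library left out. Of the further list, 13 lower genes became 8 with limma on log2(FPKM + 1) and on log2(FPKM + 0.1), 4 with the former unfiltered, 8 at an adjusted p below 0.01 and 7 to 12 with a library left out (7 without si-DYRK1A replicate 2). Its 1 higher gene became 2 when unannotated transcripts were added and 1 to 2 with a library left out. Over all features, the lower calls went from 1115 to 537 with limma on log2(FPKM + 1) and 525 on log2(FPKM + 0.1). They were 247 with the former unfiltered and 746 without si-DYRK1A replicate 2. The cause of these shifts was not tested.

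Of the tested members without a call, 5 changed sign at least once, as did 1 unannotated transcript. Tm7sf2, at 0.00, was -0.0011 with RLE normalization, -0.022 with library size only, -0.0014 with DESeq2, -0.0046 with limma-voom, -0.0055 with no filter on low counts, -0.0064 with the replicate block, -0.015 with limma on log2(FPKM + 1), -0.017 with limma on log2(FPKM + 0.1), -0.015 with limma on log2(FPKM + 1) without the filter, -0.00031 with sums with unannotated transcripts and -0.16 to 0.090 with a library left out. Srebf2, at 0.01, was -0.018 with library size only, -0.0013 with no filter on low counts and -0.031 to 0.046 with a library left out. Insig2, at 0.01, was -0.018 with library size only, -0.0017 with no filter on low counts and -0.059 to 0.052 with a library left out. Pmvk, at -0.04, was -0.14 to 0.041 with a library left out. The transcript over Hsd17b7, at -0.15, was -0.28 to 0.043 with a library left out. Sc5d, at -0.03, was -0.099 to 0.033 with a library left out.

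Replicate numbers did not pair the libraries: deviations of same-numbered libraries from their group means correlated at 0.06, -0.03 and 0.00 across genes. The replicate block left 3 higher and 4 lower members and 12 lower genes of the further list, took Fdft1 out (adjusted p = 0.05468) and brought Stard4 in (adjusted p = 0.04812), both with edgeR. At this depth the widest interval of a tested member, that of Pmvk, spanned -0.39 to 0.31 on the log2 scale, and changes of genes whose reads lie under unannotated transcripts were not detectable under the gene's name.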
